A study of Mus musculus with 17 samples.

Results

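Oxidative phosphorylation turns the electrons taken from NADH and succinate into ATP at the inner membrane of the mitochondrion. The genes described here encode the subunits of its 5 complexes and were chosen by gene symbol, with assembly factors left out. The RNA-seq table listed 91 nuclear genes of this kind among 20328 genes, with 39 in complex I, 4 in complex II, 8 in complex III, 19 in complex IV and 21 in complex V, and 89 of the 91 passed the filter on low counts. The other two, the pseudogenes Atp5l-ps1 and Atp5l-ps2, were nearly absent. The 13 protein-coding genes of mitochondrial DNA were present in both expression tables, in the single-cell table together with 85 nuclear genes among 26650. A region with a signal was listed for 52 of the genes in the H3K27ac table, as 90 of 11424 regions, and for 11 genes in the ATAC table, as 13 of 3582 regions.

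Electrons enter the chain at complex I (NADH dehydrogenase) or complex II (succinate dehydrogenase) and pass through complex III to complex IV (cytochrome c oxidase), which reduces oxygen. Complexes I, III and IV pump protons, and complex V (ATP synthase) uses their return to make ATP. Both genomes contribute: complex II is wholly nuclear, whereas the other complexes combine nuclear subunits with a few that are encoded and translated inside the organelle. Dopaminergic neurons of the substantia nigra are known for their high demand on this pathway, and inhibitors of complex I are used to model Parkinson's disease.

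All animals were female ICR mice of wild type genotype, and the labels give the tissue as brain. Lesions were made at 8 weeks of age. Sham animals were compared with animals given 6-OHDA, a toxin taken up by catecholaminergic neurons, by unilateral injection into the substantia nigra, and with 6-OHDA animals that 5 days later received AAV9 carrying human NDST3, a heparan sulfate N-deacetylase and N-sulfotransferase, under the CMV promoter, which is not restricted to one cell type (6-OHDA+NDST3). By the paper, 6-OHDA animals without NDST3 received saline, so no group here received a control vector. There were 17 libraries, of which the RNA-seq tested here held 5, with 2 sham, 1 6-OHDA and 2 6-OHDA+NDST3. The labels do not say whether replicates came from separate animals, so the p-values measure the spread between these libraries, and the 6-OHDA group, with 1 library, was assumed to vary like the others. Both comparisons that involve 6-OHDA share that library.

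RNA-seq totals ran from 51003699 to 70533326 counts. The 10 most abundant genes took 5.30% to 8.69% of a library, with the highest share in the 6-OHDA library. Cell type markers moved with the groups. All 10 neuron markers and all 8 dopaminergic neuron markers fell in the 6-OHDA library (median log2 fold change −1.19 and −4.12), while 7 of 8 microglia, 4 of 8 macrophage, 6 of 8 fibroblast, 5 of 8 astrocyte, 4 of 8 mural and 4 of 8 endothelial markers rose. In bulk tissue, fewer cells of a type and less RNA per cell cannot be told apart. The second 6-OHDA+NDST3 library also stood apart in its choroid plexus and ependyma markers, whose CPM (counts scaled to library size with TMM) summed to 2136 against 469 to 572 in the other libraries.

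In the 6-OHDA library most nuclear subunit genes lay modestly below sham. Of the 89 tested, 68 had a log2 fold change below 0 and 63 lay below both sham libraries, 70.8% of the genes against 44.3% of all 19300 genes tested. The median log2 fold change was −0.21, beside −0.00 for all genes and −0.12 for genes of at least 20 CPM. With edgeR at an adjusted p under 0.05, 14 fell and 2 rose. That is 15.7% lower, near the 17.1% of all genes, and 2.25% higher, against 18.8% of all genes. The share below sham was thus larger, and the share that rose smaller, than over all genes, while the share that fell was near it. Of genes of at least 20 CPM, 54.0% lay below both sham libraries, 28.0% fell and 20.2% rose. Beside these more abundant genes the share of subunits that fell was smaller. This is a description and carries no test. No nuclear subunit fell by 2-fold or more at an unadjusted p under 0.05, a rule that 10.1% of all genes met in that direction. By the same rule 2 rose, Cox4i2 and Cox6a2, where 14.4% of all genes did. The edgeR calls were lost without the first or the second sham library, and 67 of the nuclear subunits lay below 0 either way. With all libraries 30 were lower and 4 higher at an unadjusted p under 0.05, where 23.2% and 24.6% of all genes were. For genes of at least 20 CPM these shares were 35.6% and 24.5%.

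**Figure D1:**
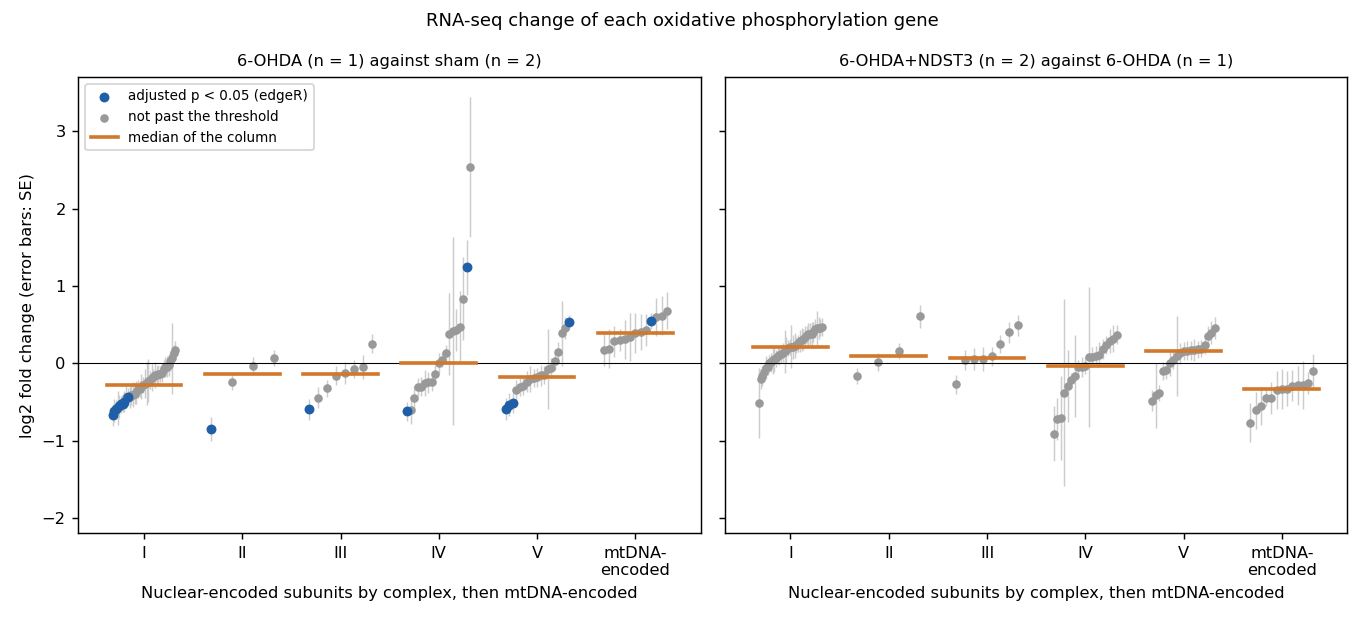
Log2 fold change (y axis) with its SE of each oxidative phosphorylation gene in RNA-seq, by complex and for the 13 genes of mitochondrial DNA, in 6-OHDA against sham and in 6-OHDA+NDST3 against 6-OHDA. Blue points passed an adjusted p under 0.05 and orange lines are column medians. Ndufs5-ps, at −3.78 and 4.16, lies outside the drawn range but counts in the median. Most of complex I lies below 0 in 6-OHDA against sham (median −0.28) and above 0 in 6-OHDA+NDST3 against 6-OHDA (0.21), and the mitochondrially encoded genes lie on the opposite side of 0 in each.

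Of the 39 complex I genes 8 fell, or 20.5% beside the 17.1% of all genes and the 28.0% of genes of at least 20 CPM. Its 7 nuclear core subunits, which carry the flavin and the iron-sulfur clusters that pass electrons to ubiquinone, all lay below both sham libraries, with 4 called and a median of −0.44. Ndufv1, which binds NADH and the flavin, was at 176 and 191 CPM in sham, 115 in 6-OHDA and 171 and 145 with NDST3. The 6-OHDA value was the lowest of the 5, and the change from sham was −0.67 ± 0.15 (log2, SE, adjusted p = 0.025). Ndufs7, which holds the last iron-sulfur cluster before ubiquinone, was at 78.3 and 79.6 CPM in sham, 52.2 in 6-OHDA and 76.0 and 66.3 with NDST3, a change from sham of −0.60 ± 0.13 (adjusted p = 0.022). Ndufs1, the largest core subunit, went from 190.2 and 199 CPM to 134, with 194 and 179 in the 6-OHDA+NDST3 libraries. Its change was −0.53 ± 0.11 (adjusted p = 0.024). Ndufv2, the iron-sulfur partner of Ndufv1, fell by 0.44 on the log2 scale (adjusted p = 0.041). Among those that did not pass were Ndufs8 (−0.33) and Ndufs3 (−0.18). Each of the 7 core genes was lowest in the 6-OHDA library.

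The 29 accessory subunits, which surround the core and are needed for its assembly and stability, had a median of −0.22. Of these, 25 lay below 0 and 4 fell: Ndufb10 (−0.62), Ndufb8 (−0.56), Ndufa9 (−0.52) and Ndufb3 (−0.50). Ndufb8 was also the most abundant complex I gene, at a mean of 478 TPM, a level corrected for transcript length. Ndufb10 was at 134 CPM in both sham libraries, 87.7 in 6-OHDA and 125 and 103 with NDST3. The decrease was not uniform, since Ndufa7 (0.17), Ndufc2 (0.13) and Ndufa2 (0.03) lay on the other side of 0 without passing the test. Ndufs5 could not be read, because its processed copy Ndufs5-ps took 2.29% and 60.9% of their shared CPM in the sham libraries, 3.53% in 6-OHDA and 61.6% and 31.98% with NDST3. Their summed CPM was 72.0 and 87.1, then 56.5, then 82.2 and 65.5. The lowest level in complex I was that of another copy, Ndufb4b, at 13.4 TPM.

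Complex II gave the lowest fold change among the called genes, in 1 of its 4 subunits. Sdha is the flavoprotein that oxidizes succinate, a step shared by the respiratory chain and the TCA cycle. Its level was 564 and 593 CPM in sham, 321 in 6-OHDA and 525 and 452 with NDST3. The 6-OHDA library lay apart from all 4 others, and the change from sham was −0.85 ± 0.15 (adjusted p = 0.015). The iron-sulfur subunit Sdhb, at 119 and 123 CPM in sham and 102 in 6-OHDA, changed by −0.25 (adjusted p = 0.13), and the membrane anchors Sdhc and Sdhd changed by 0.07 and −0.04 (adjusted p = 0.62 and 0.82). In level Sdha was highest of the 4, at a mean of 408 TPM, and Sdhd lowest, at 164.

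The Sdha promoter is shown because this gene had the lowest log2 fold change of the called genes. The sequence runs from 250 bases before to 50 after the transcription start in RefSeq (GRCm38.p6, chr13:74350191-74350490, minus strand), and capitals mark the 3 matches to the NRF1 motif, which reads GCGC, any base and TGCGC, searched on both strands and found here at −98, −55 and −10.
Sdha promoter: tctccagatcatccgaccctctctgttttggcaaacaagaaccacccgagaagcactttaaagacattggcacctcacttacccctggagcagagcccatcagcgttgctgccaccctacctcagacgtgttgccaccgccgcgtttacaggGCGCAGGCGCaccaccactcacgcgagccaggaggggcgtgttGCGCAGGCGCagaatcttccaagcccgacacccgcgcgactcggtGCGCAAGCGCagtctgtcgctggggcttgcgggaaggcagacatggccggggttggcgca
NRF1 is a factor long known to act on nuclear genes of the respiratory chain. Of the 89 tested nuclear genes, 70 had a promoter that was searched. The search left out the promoters of a whole chromosome and read only the first listed promoter of each gene. The NRF1 letters stood in 22.9% of these 70 and in 4.78% of the 27025 promoters searched. The ETS letters CCGGAAG, which GABP binds, stood in 22.9% against 9.12%, the YY1 letters AAGATGGC in 12.9% against 2.88%, and the Sp1 letters GGGCGG in 40% against 35.9%, again on both strands. The median GC content was 57.3% in the promoters of these genes and 52.7% in all promoters searched, and its part in these shares was not tested. Among the 12 matched genes that fell, 2 held the NRF1 letters, 3 the YY1 letters, 4 the Sp1 letters and 0 the ETS letters. A match describes letters in this window and says nothing of binding in these animals.

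In complex III, 7 of 8 subunits lay below 0 (median −0.15) and Uqcrc1, a core protein, fell. It was at 299 and 317 CPM in sham, 204 in 6-OHDA and 303 and 269 with NDST3, a change from sham of −0.60 ± 0.13 (adjusted p = 0.026). Its partner Uqcrc2 changed by −0.45 (adjusted p = 0.057). By level the small subunit Uqcrh was the highest, at 597 TPM, and Uqcrq the lowest, at 139.7 TPM.

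In complex IV most widely expressed subunits lay below 0 and the tissue-restricted isoforms above it. Of 11 widely expressed subunits, 9 lay below both sham libraries, with a median of −0.25, and only Cox5a fell, from 149.5 and 152 CPM to 97.9 (−0.62 ± 0.12, adjusted p = 0.019), with 134 and 118 in the 6-OHDA+NDST3 libraries. Cox4i1, the most abundant of the complex at 1185 TPM, changed by −0.25 without passing. All 7 tissue-restricted isoforms lay above 0, with a median of 0.47, although at low levels. Of these 1 rose by the test, or 14.3%, beside 18.8% of all genes. Cox4i2, an isoform of lung and of oxygen-sensing cells, was at 1.28 and 1.13 CPM in sham, 2.85 in 6-OHDA and 1.28 and 1.74 with NDST3, and rose by 1.24 ± 0.35 (adjusted p = 0.0497). The heart and muscle isoform Cox6a2 was at 0.660 and 0.550 CPM, then 3.50, then 1.24 and 6.15, a difference from sham of 2.53 ± 0.90 that missed the threshold (adjusted p = 0.086). Its 6-OHDA+NDST3 libraries lay on both sides of the 6-OHDA library. The others differed from sham by 0.38 for Cox7b2 and 0.84 for Cox6b2, both known from testis, by 0.42 for Cox8b and 0.47 for Cox7a1, both known from muscle, and by 0.43 for the hypoxia-responsive Ndufa4l2. None of these passed. Cox8b was the lowest of the complex, at 1.29 TPM. Mural markers, which led the single-cell cluster with the highest Cox4i2 level, summed to 320 and 258 CPM in sham, 606 in 6-OHDA and 214 and 244 with NDST3, and their part in the rise was not tested.

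In complex V, 2 of the 5 subunits of the catalytic head fell. These were Atp5a1 and Atp5b, which encode the alpha and beta subunits that bind nucleotide. Atp5a1 was at 1052 and 1113 CPM in sham, 717 in 6-OHDA and 1021 and 939 with NDST3, a change from sham of −0.60 ± 0.14 (adjusted p = 0.033). Atp5b, the most abundant nuclear gene of the pathway at 1596 TPM, was at 1368 and 1445, then 971, then 1318 and 1232 CPM, and fell by 0.53 on the log2 scale (adjusted p = 0.045). Among the other head subunits Atp5d and Atp5c1 were lower without passing (−0.30 and −0.15), and the small epsilon subunit Atp5e differed by 0.46 in the opposite direction (adjusted p = 0.059).

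**Figure D2:**
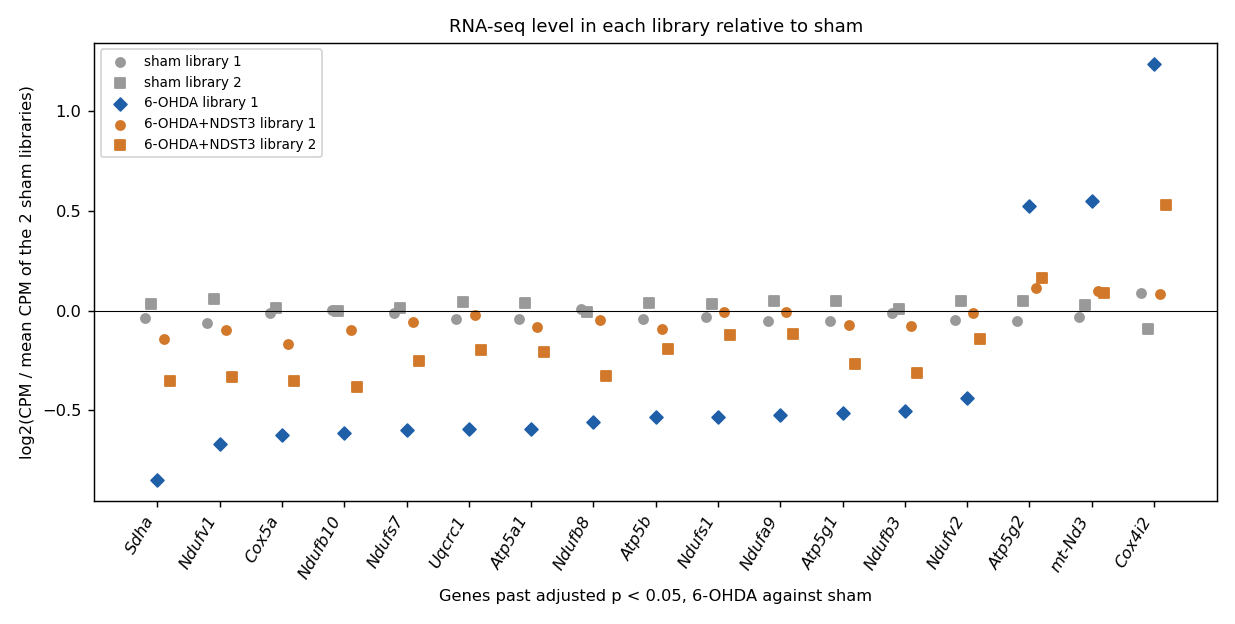
Log2 of the CPM of each library over the mean of both sham libraries (y axis), for the genes that passed an adjusted p under 0.05 in 6-OHDA against sham. In each of the genes that fell the 6-OHDA library lies below the other 4, with Sdha the lowest, and in each that rose, such as Atp5g2 and mt-Nd3, it lies above them.

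Among the 3 genes of the c subunit 1 fell and 1 rose. Atp5g1, Atp5g2 and Atp5g3 encode precursors with different import sequences but the same mature protein, the subunit of the rotating ring. Atp5g1 was at 85.7 and 91.9 CPM in sham, 62.2 in 6-OHDA and 84.5 and 73.8 with NDST3, and fell by 0.51 on the log2 scale (SE 0.13, adjusted p = 0.036). Atp5g2 was at 65.7 and 70.4 CPM, then 98.1, then 73.7 and 76.3, and rose by 0.53 (SE 0.10, adjusted p = 0.018). Atp5g3, the most abundant of the trio, differed by −0.35 (adjusted p = 0.094). Atp5g2 took 21.3% of the trio's TPM in both sham libraries, 33.4% in 6-OHDA and 22.1% and 26.8% with NDST3. Atp5g3 took 55.8% in both sham libraries, 48.8% in 6-OHDA and 54.9% and 51.9% with NDST3. The summed CPM of the trio was 338 and 364 in sham, 313 in 6-OHDA and 340 and 311 with NDST3, so the 6-OHDA library did not lie outside the other libraries in the sum.

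The promoters of the trio are shown because these genes share a protein and both that passed the test, Atp5g1 and Atp5g2, changed in opposite directions. All are from RefSeq (GRCm38.p6, minus strand, the same window as above), at chr11:96075582-96075881 for Atp5g1, chr15:102670998-102671297 for Atp5g2 and chr2:73911277-73911576 for Atp5g3, and capitals again mark matches to the NRF1 letters.
Atp5g1 promoter: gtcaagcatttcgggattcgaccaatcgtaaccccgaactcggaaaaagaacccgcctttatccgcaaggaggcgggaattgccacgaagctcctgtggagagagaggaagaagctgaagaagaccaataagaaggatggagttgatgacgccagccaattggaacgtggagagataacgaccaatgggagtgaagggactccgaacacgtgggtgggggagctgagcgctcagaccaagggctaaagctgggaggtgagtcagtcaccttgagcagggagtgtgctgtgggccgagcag
Atp5g2 promoter: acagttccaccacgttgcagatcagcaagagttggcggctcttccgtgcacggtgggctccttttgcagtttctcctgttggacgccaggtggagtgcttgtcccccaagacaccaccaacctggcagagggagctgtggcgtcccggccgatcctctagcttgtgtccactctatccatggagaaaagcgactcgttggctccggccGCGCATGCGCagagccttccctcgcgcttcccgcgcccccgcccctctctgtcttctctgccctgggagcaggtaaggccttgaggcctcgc
Atp5g3 promoter: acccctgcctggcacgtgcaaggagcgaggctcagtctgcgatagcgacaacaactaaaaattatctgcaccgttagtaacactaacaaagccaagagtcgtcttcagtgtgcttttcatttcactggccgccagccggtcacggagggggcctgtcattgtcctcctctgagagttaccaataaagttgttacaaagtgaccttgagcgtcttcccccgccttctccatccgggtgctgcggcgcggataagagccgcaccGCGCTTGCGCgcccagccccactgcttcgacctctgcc
Atp5g2 had 1 match, at −42, and Atp5g3 had 1 match, at 12 bases after the start. The letters were not found in the Atp5g1 window.

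**Figure D3:**
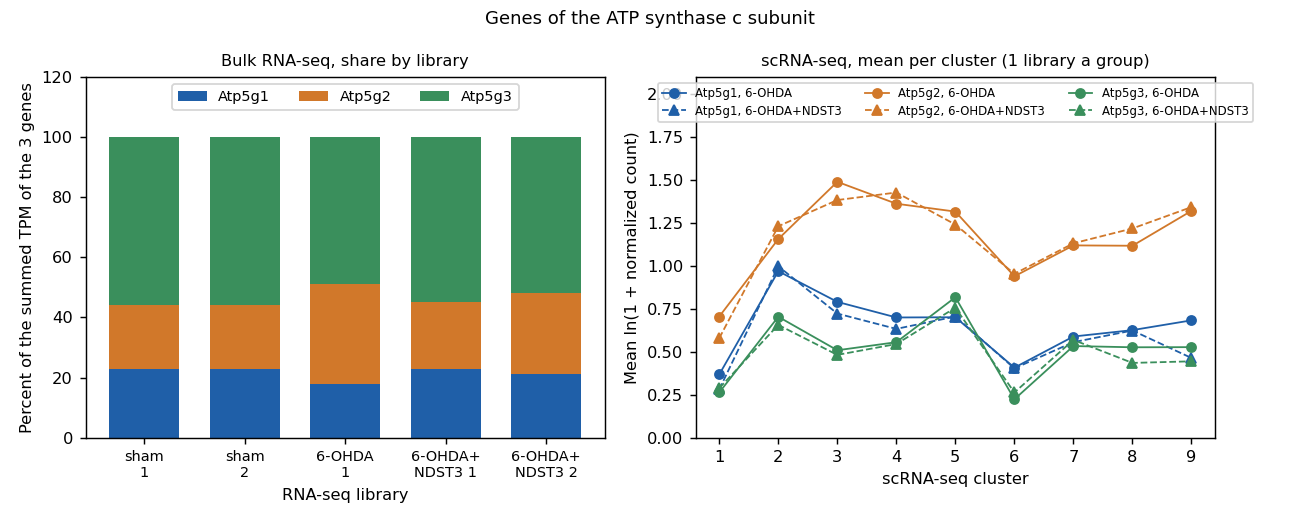
Left, share of the summed TPM of Atp5g1, Atp5g2 and Atp5g3 (y axis, percent) in each RNA-seq library. Right, mean ln(1 + normalized count) of the 3 genes in each single-cell cluster, with 1 library a group. The Atp5g2 share is 33.4% in the 6-OHDA library and 21.3% to 26.8% in the others, and in single cells Atp5g2 is the highest of the 3 in each cluster.

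The mitochondrially encoded genes lay on the other side. All 13 were above both sham libraries in the 6-OHDA library, where 45.3% of all genes were, with log2 fold changes from 0.17 for mt-Co3 to 0.68 for mt-Nd5 and a median of 0.39. Only mt-Nd3, a membrane subunit of complex I, rose by the test. It was at 235 and 245 CPM in sham, 350.4 in 6-OHDA and 256 and 255 with NDST3, a change of 0.55 ± 0.11 (adjusted p = 0.018). The 6-OHDA library was the highest of the 5 for mt-Nd3. mt-Nd5 was at 2965 and 2199.9 CPM, then 4131, then 2900.2 and 2521, and its difference from sham did not pass (adjusted p = 0.085). mt-Co1, the catalytic subunit of complex IV and the highest of the 13 at 21892 TPM, was at 14246 and 12787 CPM, then 17101, then 16558 and 11562 (0.34, adjusted p = 0.43). Between mt-Co1 and mt-Co3 lay the range of complex IV, and mt-Cytb of complex III (0.39) and mt-Atp6 and mt-Atp8 of complex V (0.28 and 0.30) were similar in size. Within a library, the ratio of the summed TPM of the 13 genes to that of the nuclear genes was 4.44 and 3.998 in sham, 6.43 in 6-OHDA and 4.91 and 4.36 with NDST3. The 6-OHDA library had the highest ratio, and the sham and 6-OHDA+NDST3 ranges overlapped.

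Length moved with the fold change and had to be set beside it. The nuclear subunit transcripts were short, with a median implied length of 732 nucleotides against 3077 for all genes tested. In 6-OHDA against sham the median log2 fold change of all genes was 0.33 in the 10% with the shortest transcripts, which held 66 of the 89 genes, and −0.30 in the 10% with the longest. Taken relative to genes of like length in the same 10%, the nuclear median was −0.49 in place of −0.21. Of the 13 mitochondrially encoded genes, 9 belonged to that shortest group, and relative to genes of like length their median was 0.10 in place of 0.39, with 8 of 13 above 0. In 6-OHDA+NDST3 against 6-OHDA the shortest group had a median of −0.23, and the median of the 13 genes relative to like length was −0.21 in place of −0.34. The part of length and of RNA quality in these values was not tested.

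In 6-OHDA+NDST3 against 6-OHDA most nuclear subunits lay above 0, but none passed the test. Of 89, 65 were above 0 (median 0.14, beside 0.00 for all genes and 0.10 for genes of at least 20 CPM). In both 6-OHDA+NDST3 libraries 50 lay above the 6-OHDA library, or 56.2%. The share was 42.4% of all genes and 52.2% of genes of at least 20 CPM. With edgeR, 0 rose and 0 fell at an adjusted p under 0.05, while 9.06% of all genes rose and 6.59% fell. Of genes of at least 20 CPM, 15.9% rose and 8.40% fell. At an unadjusted p under 0.05, 15 were higher and 3 lower, or 16.9% and 3.37% of the genes. That level was met by 19.5% and 18.5% of all genes and by 30.1% and 19.5% of genes of at least 20 CPM. DESeq2 called 9 of the 89 higher and 2 lower, beside 2731 and 2463 of all 19300 genes. With limma, Sdha, Uqcrc1, Ndufs1 and Ndufa9 were called higher, where 1700 (pseudocount of 1) or 1801 (0.1) of all genes were. All 7 complex I core subunits were above 0 in both libraries, with a median of 0.36. The closest to the threshold were Sdha at 0.61 ± 0.15 (adjusted p = 0.054), Ndufs1 at 0.47 ± 0.11 (adjusted p = 0.054), Ndufa9 at 0.46 (adjusted p = 0.055) and, in the other direction, Atp5g2 at −0.39 ± 0.10 (adjusted p = 0.062). All 13 mitochondrially encoded genes lay below 0, from −0.77 for mt-Nd6 to −0.10 for mt-Co3, with a median of −0.34, and 12 lay below the 6-OHDA library in both libraries, where 43.2% of all genes did. Without either sham library or without the first 6-OHDA+NDST3 library, almost no gene was called in this comparison, markers included. With only both groups compared, or with the replicate number as a block, 0 of all genes were called. None of the 13 was called by edgeR, with 2 lower at an unadjusted p under 0.05, and mt-Nd3 came nearest (adjusted p = 0.0504). Of the neuron markers 7 of 10 rose in the same comparison. Their summed CPM was 7379 and 8081 in sham, 2757 in 6-OHDA and 6408 and 5565 with NDST3, and their part in the differences of the subunit genes was not tested. Fibroblast markers, of which 6 of 8 fell, summed to 972 and 442, then 2167, then 322 and 516 CPM. Endothelial markers, of which 5 of 8 fell, summed to 289 and 252, then 386, then 224 and 254, and 4 of 8 mural markers fell. No microglia or macrophage marker passed in this comparison. Microglia markers summed to 391 and 298 in sham, 2324 in 6-OHDA and 807 and 1330.0 with NDST3. Macrophage markers summed to 245 and 46.8, then 3840, then 875 and 1576. Astrocyte markers summed to 5166 and 4230, then 11450, then 6513 and 7282.

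Against sham, 69 of 89 nuclear subunits lay below 0 in 6-OHDA+NDST3 with a median of −0.08, and no gene of all 19300 passed the test with edgeR, so the background of calls was 0%. At an unadjusted p under 0.05, 1 nuclear subunit was higher and 1 lower, where 9.82% and 4.39% of all genes were. DESeq2 called Cox6a2 higher, as it did 827 of all 19300 genes. The 2-fold rule also picked Cox6a2, and 4.78% of all genes met it in that direction. Without the first 6-OHDA+NDST3 library 78 nuclear subunits lay below 0, and 55 did without the second. The 13 mitochondrially encoded genes lay on both sides, 8 above and 5 below 0.

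Lists of genes around the chain differed in how many of their members fell, beside the 17.1% of all genes that fell and the 18.8% that rose. In the 6-OHDA library 8 of 13 TCA cycle enzymes fell (61.5%) and 1 rose (7.69%), with a median of −0.52. Idh3b, a subunit of the NAD-dependent isocitrate dehydrogenase, was at 256 and 260.4 CPM in sham, 136 in 6-OHDA and 231 and 199 with NDST3 (−0.92 ± 0.14, adjusted p = 0.011). Sucla2, a subunit of succinyl-CoA synthetase, fell by 0.80, whereas Suclg2, which makes the GTP-forming version of that enzyme, rose by 0.86. Of 17 glycolysis genes 12 fell (70.6%) and 2 rose (11.8%), with a median of −0.61. They included Eno2, the neuronal enolase (−1.47), Hk1 (−0.97) and Pkm (−0.95), while the inducible hexokinase Hk2 rose by 2.43.

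Among 14 regulators of mitochondrial gene expression 4 fell (28.6%) and 1 rose (7.14%), with a median of 0.04. The coactivators Ppargc1b and Ppargc1a, known for driving mitochondrial biogenesis, both fell in the 6-OHDA library (adjusted p = 0.0091 and 0.011) and rose by 1.09 and 0.66 in 6-OHDA+NDST3 against 6-OHDA (adjusted p = 0.036 and 0.045). The calls of the latter comparison were lost without either sham library or without the first 6-OHDA+NDST3 library. They were also lost with only both groups compared or with the replicate number as a block. Ppargc1b was at 28.7 and 29.0 CPM in sham, 10.2 in 6-OHDA and 24.4 and 19.2 with NDST3. Ppargc1a was at 73.3 and 78.8 CPM in sham, 39.2 in 6-OHDA and 67.1 and 57.0 with NDST3. For both genes the 6-OHDA library lay below all others. Gabpa, the DNA-binding subunit of GABP, moved in reverse, from 24.02 and 24.5 CPM to 47.5, with 28.8 and 30.7 in the 6-OHDA+NDST3 libraries (0.97 and then −0.67). Polrmt, the mitochondrial RNA polymerase, fell by 0.65 in 6-OHDA against sham.

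Of 46 assembly factors tested, 9 fell in the 6-OHDA library, or 19.6% beside 17.1% of all genes, and 0 rose, beside 18.8%. The genes that fell were 3 of 14 for complex I, 1 of 4 for complex II, 1 of 6 for complex III, 3 of 19 for complex IV and 1 of 3 for complex V. Ndufaf5, which modifies Ndufs7, fell by 1.11, Cox11, which delivers copper to complex IV, fell by 0.87, Atpaf1 by 0.77 and Uqcc1 by 0.74. In 6-OHDA+NDST3 against 6-OHDA the values of these 4 genes were 0.92, 0.81, 0.69 and 0.62, called with all 5 libraries. The 4 calls were 8.70% of the 46, near the 9.06% of all genes that rose. Both sets of values rest on the same 6-OHDA library. The calls of the latter comparison were lost without either sham library or without the first 6-OHDA+NDST3 library. They were also lost with only both groups compared or with the replicate number as a block, where 0 of all genes were called. Of 11 genes of coenzyme Q synthesis 2 fell (18.2%), among them Coq8a (−0.83), and 1 rose. Among 6 electron carriers and other subunits Etfa, Etfb and Etfdh, which pass electrons from fatty acid oxidation to ubiquinone, rose, and Ndufab1 fell. Of 8 genes of uncoupling and mitochondrial dynamics 4 fell (50%), among them the fusion gene Mfn2 (−0.80), and Ucp2, a carrier abundant in immune cells, rose by 2.90.

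The single-cell table gave the mean natural log of 1 plus the normalized count for 9 clusters in the 6-OHDA and 6-OHDA+NDST3 groups, with 1 library in each, so the values below carry no test. The table holds means, so cells could not be examined for doublets here. From their markers, cluster 1 was neutrophil-like, 3 macrophage-like, 4 T cell-like, 5 mural-like, 6 microglia-like, 7 endothelial-like, 8 lymphoid and 9 B cell-like. Cluster 8 held the highest level of 5 of 8 innate lymphoid markers, but its T cell markers summed to 7.70 and its innate lymphoid markers to 4.47. The innate lymphoid markers summed to 5.62 in cluster 4, where 3 of 8 were highest. Cluster 2 held the highest levels of astrocyte, choroid plexus and ependyma, oligodendrocyte and fibroblast markers together and is left unnamed. No cluster was led by neuron markers, of which 2 of 10 exceeded a mean of 0.1 anywhere. The table therefore gives no values for neurons, whose markers the bulk libraries hold.

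Nuclear subunit levels were highest in clusters 2 and 5 and lowest in the microglia-like and neutrophil-like clusters. The median of the 85 genes was 0.816 (6-OHDA) and 0.876 (6-OHDA+NDST3) in cluster 2 and 0.847 and 0.782 in cluster 5, beside 0.310 and 0.325 in cluster 6 and 0.368 and 0.318 in cluster 1. Of the 85 genes, 36 peaked in cluster 2 and 35 in cluster 5, while 49 were lowest in cluster 6 and 28 in cluster 1. The widest ranges belonged to Cox8a, Atp5b, Atp5j, Cox6c and Ndufa13. Atp5b, for example, was at 1.75 and 1.73 in cluster 5 and 0.631 and 0.633 in cluster 1. The mitochondrially encoded genes also peaked in clusters 2 and 5 (6 and 7 of 13), but 11 of 13 were lowest in cluster 1, 1 in cluster 4 and 1 in cluster 6. They made 6.05% and 7.66% of the back-transformed total in cluster 2, 6.67% and 7.48% in cluster 5 and 1.01% and 0.920% in cluster 1. Cells above a mitochondrial content of 10% had been removed before deposit, which limits these values from above.

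Several isoforms with low levels in bulk tissue were concentrated in few clusters. Cox4i2 was at 0.616 and 0.549 and Ndufa4l2 at 0.863 and 0.754 in the mural-like cluster, and neither exceeded 0.06 in the others. Cox6a2 was highest in the macrophage-like cluster, at 0.260 and 0.218, and next in cluster 8, at 0.175 and 0.109. Atp5g2, the c subunit gene that rose in bulk tissue, was the most abundant of the trio in each cluster and group, with 45.0% to 67.4% of their back-transformed sum in 6-OHDA and 47.9% to 71.1% in 6-OHDA+NDST3. In bulk sham tissue Atp5g3 had that place.

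**Figure D4:**
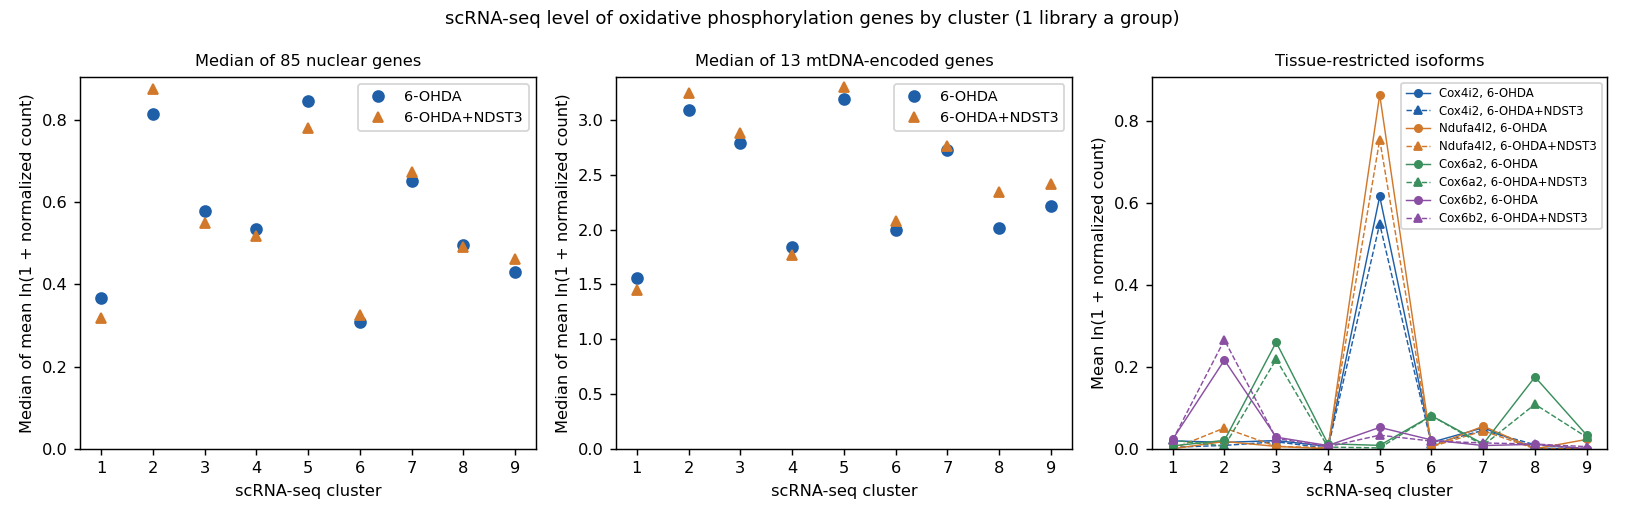
Median over genes of the mean ln(1 + normalized count) in each single-cell cluster (x axis, 1 to 9) for nuclear and mitochondrially encoded subunits, and the level of tissue-restricted isoforms, in 6-OHDA (circles) and 6-OHDA+NDST3 (triangles), 1 library each. Nuclear medians run from 0.310 in cluster 6 to 0.876 in cluster 2, and Cox4i2 and Ndufa4l2 stand out in cluster 5.

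Between the 2 groups the nuclear genes differed by small amounts within clusters. Their median difference (6-OHDA+NDST3 minus 6-OHDA) was positive in 3 of 9 clusters. Of the 85 genes, 73 were lower and 11 higher in cluster 3, with a median of −0.04. There 2947 of all 6675 genes over a mean of 0.1 in either group were lower. In clusters 1 and 5, 63 were lower (medians −0.04), beside 2823 of 5841 and 3972 of 7467 genes. In clusters 2 and 7, 50 of the 85 were higher. The mitochondrially encoded genes had a positive median difference in 7 of 9, the opposite direction to the bulk libraries. Over all genes above a mean of 0.1 the median was also positive except in clusters 5 and 9, and ran from −0.02 to 0.01. No cluster was led by neuron markers and cells above a mitochondrial content of 10% had been removed, so the clusters are unlike whole tissue. The mitochondrial median difference was 0.23 in cluster 8, where all 13 genes were higher, and 0.21 in cluster 2. It was −0.07 in the neutrophil-like and −0.04 in the T cell-like cluster. By a difference of at least 0.25, 6 of the 13 genes were higher in cluster 8, against 0.768% of all genes there. They were mt-Cytb (0.38), mt-Co2 (0.34), mt-Nd4 (0.33), mt-Co3 (0.30), mt-Nd1 (0.28) and mt-Nd2 (0.25). In cluster 2 mt-Co1 (0.31) and mt-Co3 (0.29) passed that size, against 0.122% of genes, and in cluster 9 mt-Nd1 (0.31) and mt-Co3 (0.30), against 2.5%. The nuclear genes that did were Cox8a in cluster 1 (−0.28, with 0.428% of genes lower by that much) and Uqcrfs1 in cluster 9 (−0.32, with 2.95%). mt-Nd3 was higher in 9 of 9 clusters, whereas mt-Nd4l was lower in 7. The remaining mitochondrial genes, mt-Nd5, mt-Nd6, mt-Atp6 and mt-Atp8, differed by less than 0.25 in each of these 3 clusters.

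H3K27ac, the acetylation of histone H3 that marks active promoters and enhancers, was given as 1 value a region and group with 2 libraries pooled, so there was no replicate error. Regions at the subunit genes had medians near those of all regions. In 6-OHDA against sham the median log2 ratio (signal plus 1) was 0.14, beside 0.12 over all regions. By 2-fold, 5 of the 90 regions were higher, where 7.65% of all regions were, and 8 were lower (8.89%), where 4.44% were. In 6-OHDA+NDST3 against 6-OHDA the median was 0.41 beside 0.39, with 7 regions at least 2-fold higher (11% of all regions) and 0 lower (0%). No region of all 11424 was lower in 6-OHDA+NDST3 than in 6-OHDA, so the direction of this comparison belongs to the whole table and cannot be read for these genes. In 6-OHDA+NDST3 against sham the median was 0.51 beside 0.53, with 19 regions at least 2-fold higher (25.5% of all regions) and 2 lower (2.22% of these regions, beside 0.63% of all regions).

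H3K27ac showed no common direction at the genes that fell in RNA. The 10 regions at 6 of those genes had a median log2 ratio of 0.08 in 6-OHDA against sham, with 5 below 0. Sdha had regions at 16 bases before and 420 and 587 bases after its start. Their signals in sham, 6-OHDA and 6-OHDA+NDST3 were 19.6, 17.9 and 21.9 at the first, 21.3, 20.6 and 26.9 at the next and 12.2, 17.7 and 24.1 at the last. Sdha, with the lowest fold change of the called genes, thus had no 2-fold difference at any of them. Ndufs1, which also fell in RNA, had a region 471 bases after its start that went from 10.6 to 28.6 and then 55.6. Among genes with no call in RNA, Sdhb had a region 58 bases before its start at 20.1, 6.95 and 16.9, and Ndufa2 a region 218 bases after its start at 7.83, 26.1 and 62.2. Atp5g3 had 3 regions and Atp5g1 had 1, the latter at 8.04, 9.45 and 11.4.

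**Figure D5:**
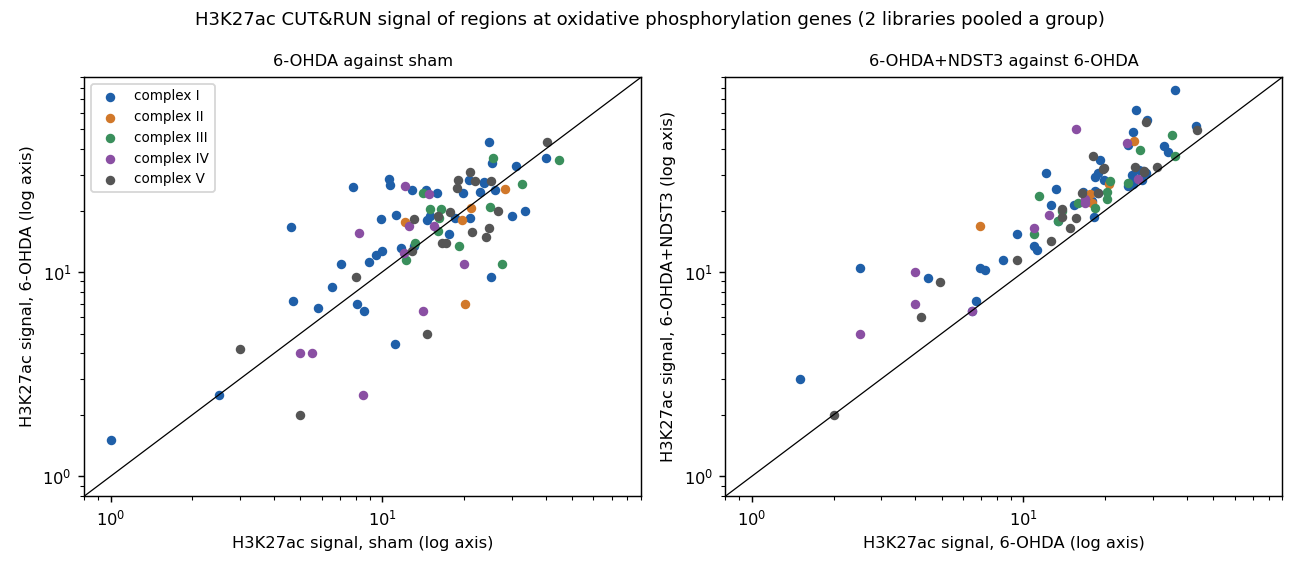
H3K27ac signal of the 90 regions at oxidative phosphorylation genes (both axes log), 6-OHDA against sham and 6-OHDA+NDST3 against 6-OHDA, coloured by complex, with 2 libraries pooled in each group and the line of equal signal. In the first panel points lie on both sides of the line, with 36 regions lower in 6-OHDA, and in the second none lies below it.

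Open chromatin by ATAC-seq was listed at 13 regions, 1 of them at the pseudogene Cox7c-ps1, with 1 library a group and no test. These regions were strong, with a median 6-OHDA signal of 57.0 beside 17.3 for all regions. The median log2 ratio was 0.17 in 6-OHDA against sham (0.11 over all regions), 0.07 in 6-OHDA+NDST3 against 6-OHDA (0.11) and 0.24 against sham (0.20). The strongest were those of Atp5o, a stalk subunit of ATP synthase, at 338, 380.2 and 399 in sham, 6-OHDA and 6-OHDA+NDST3, and of Ndufa5, 40 bases before its start, at 342, 382.5 and 393. Ndufa4, a subunit of complex IV, followed at 261, 281 and 304. In 6-OHDA against sham none of the 13 differed by 2-fold, where 4.55% of all regions were higher and 5.06% lower by that much. Atp5pb alone was 2-fold lower in 6-OHDA+NDST3 than in 6-OHDA (13.2 and 6.12, with 3.48% of all regions lower), at a weak region. Of the genes that fell in RNA only Cox5a had a region, at 28.6, 37.0 and 36.9.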

How the data were processed

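RNA-seq counts per gene were deposited by the authors beside FPKM and TPM values, from poly-A libraries (TruSeq Stranded mRNA) processed with Trimmomatic, HISAT2 and StringTie on mm10. The deposited single-cell values are means of the natural log of 1 plus counts normalized to 10000 UMIs per cell, made with Cell Ranger and Seurat, by cluster for the 6-OHDA and 6-OHDA+NDST3 groups. The sham single-cell library was not analysed here. Cells with more than 8000 genes had been removed against multiplets and no doublet caller was run. The H3K27ac CUT&RUN and ATAC-seq tables hold the signal the authors deposited per region. Their coordinates did not match GRCm38 gene starts (14.9% and 28.3% within 2 kb), so only the deposited distances are given. 0 columns of per-sample values were left out.

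Genes were filtered with filterByExpr (19300 kept), scaled by TMM and tested with edgeR 4.0.16 quasi-likelihood over 5 libraries in 3 groups (R 4.3.3, biological coefficient of variation 20.3%), with Benjamini-Hochberg adjustment over all genes tested and a threshold of 0.05. The code was tested on simulated data. Signal ratios used a pseudocount of 1. TPM shifted the median gene of at least 20 CPM by −0.32 (log2) in the 6-OHDA library and FPKM by −0.10, so TPM was compared only within libraries. Alternatives used DESeq2 1.42.0 and limma 3.58.1.

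The genes and lists were chosen with earlier results of these data known. Named were the 10 called members with the largest change in size without overlap, all core subunits, tissue-restricted isoforms, Sdh subunits, mitochondrially encoded genes, the highest and lowest level of each complex, the 5 nuclear genes with the widest range over clusters, genes with regions and up to 4 called genes of each list. The values of 1 gene that the rule names are not reported here. Other called members and genes singled out as contrasts were named after their values were seen. A mean of 0.1 was the floor for single-cell markers and for the single-cell shares over all genes.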

Additional observations from a re-analysis of the deposited data

How the results depend on the processing

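The single 6-OHDA library limits all values against it. For 6-OHDA against sham, nuclear members called higher numbered 1 with DESeq2 size factors or without a filter on low counts, 4 with only both groups compared and 0 to 4 when leaving out 1 library. Members called lower numbered 23 with DESeq2, 0 by the 2-fold rule and 0 to 20 when leaving out 1 library, with 0 without either sham library. With the replicate number as a block, 0 members were called in either direction, beside 1008 higher and 788 lower among all genes. DESeq2 called 3781 of all 19300 genes lower. Sham and 6-OHDA+NDST3 libraries of the same number deviated in opposite directions (r = −0.46 over 15523 genes). This rests on a single difference between libraries in each group, so it cannot show whether the numbers pair the libraries. A block with crossed numbers, added after seeing the data, called 17 members lower and 2 higher for 6-OHDA against sham. Over all 19300 genes it called 3599 lower and 3845 higher. For 6-OHDA+NDST3 against 6-OHDA it called 4 members higher and 1 lower, beside 2506 and 2289 of all genes.

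For 6-OHDA+NDST3 against 6-OHDA, a filter of at least 1 CPM gave 3 members higher and 1 lower, beside 1895 and 1510 of all 15755 genes. DESeq2 called 9 members higher and 2 lower, and limma on FPKM 4 higher with either pseudocount (1 or 0.1). With only both groups compared, or with the replicate number as a block, 0 of all 19300 genes were called in either direction. Which library was left out also changed the calls. Against sham, 1 member, Cox6a2, was called higher by DESeq2 and by the 2-fold rule, and 0 to 1 when leaving out 1 library. Relative to genes of the same length, the medians were −0.49 and 0.32. Over all alternatives the median stayed between −0.49 and −0.17 for 6-OHDA against sham, 0.07 and 0.32 for 6-OHDA+NDST3 against 6-OHDA, and −0.16 and −0.03 for 6-OHDA+NDST3 against sham. The cause of these differences was not tested. All 17 members called in 6-OHDA against sham kept their direction with DESeq2, limma, the other filters and scaling, only both groups, the replicate block and each sham or 6-OHDA+NDST3 library left out. This was nearly fixed in advance, since they were picked by this comparison and every setting used the same 6-OHDA library. With the replicate block 0 of the 17 stayed called. The 17 were not followed under the crossed block. Depth limits the tissue-restricted isoforms, most of them under 4 CPM.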
